A study of Mus musculus with 4 samples.

Results

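Imprinted genes are transcribed mainly from the chromosome copy inherited from 1 parent, and most of them lie in clusters that share a control region whose DNA methylation differs between the parental copies. At Igf2/H19 the control region lies upstream of H19, and the insulator protein CTCF binds its unmethylated maternal copy and blocks the contact of Igf2 with enhancers beyond H19. At the Kcnq1 and Igf2r clusters a long antisense RNA, Kcnq1ot1 or Airn, is transcribed from the paternal copy and silences neighbours on that copy. Topologically associating domains (TADs) are stretches of a chromosome whose DNA contacts itself more often than the flanking DNA, and CTCF is commonly bound where TADs meet.

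The 10 genes described here are Igf2, H19, Ins2, Kcnq1, Kcnq1ot1, Cdkn1c, Dlk1, Meg3, Igf2r and Airn, chosen by name as the best-known members of 4 imprinted clusters, out of 34128 protein-coding and long non-coding RNA (lncRNA) genes annotated on chromosomes 1 to 19 and X. Each was placed by its annotated start into the TADs of AML12 cells, an immortalized mouse hepatocyte line, grown as a monolayer (2D) or embedded in Matrigel (3D). Both cultures had been held at the G1/S boundary with 1 mM hydroxyurea, for 24 h in 2D and 36 h in 3D, so the length of treatment cannot be told apart from the growth dimension. There were 2 biological replicates of in situ Hi-C per culture, and the authors pooled them before calling TADs, leaving 1 list per culture, with no replicate error and with an unknown number of contacts behind each TAD. No p-value is therefore given, and a difference between the lists has no replicate check. Contacts were not separated by parental chromosome, so each TAD stands for both copies together. The lists hold no transcript levels, and neither expression of these genes nor hepatocyte markers could be checked in them.

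The lists held 4467 TADs in 2D and 4355 in 3D on a grid of 40-kb bins, with lengths of 120 to 5720 kb in 2D and 120 to 5960 kb in 3D. A border is a distinct TAD start or end. Borders are called shared when the other list had one within 40 kb, or 1 bin, and a TAD has a counterpart when both of its ends were shared with a single TAD of the other list.

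All 10 imprinted genes started inside a TAD in both cultures, against 80.9% of all genes in 2D and 86.4% in 3D. Of the 10, 7 lay in a TAD with a counterpart, against 55.1% of all genes in 2D and 55.4% in 3D. Kcnq1, Dlk1, Meg3, Igf2r and Airn, 5 of the 10, lay in TADs with identical ends in both cultures, and 37.7% of all genes did so. Kcnq1ot1 and Cdkn1c lay in TADs whose ends differed by 1 bin. The TAD of Igf2, H19 and Ins2 was 440 kb long in 2D and 200 kb long in 3D and had no counterpart. Among the 10, genes of the same cluster shared a TAD, except for Kcnq1. These counts therefore rest on 5 TADs per list, not on 10 independent places. A counterpart was found for 66.1% of all TADs in 2D and for 67.8% in 3D.

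**Figure D1:**
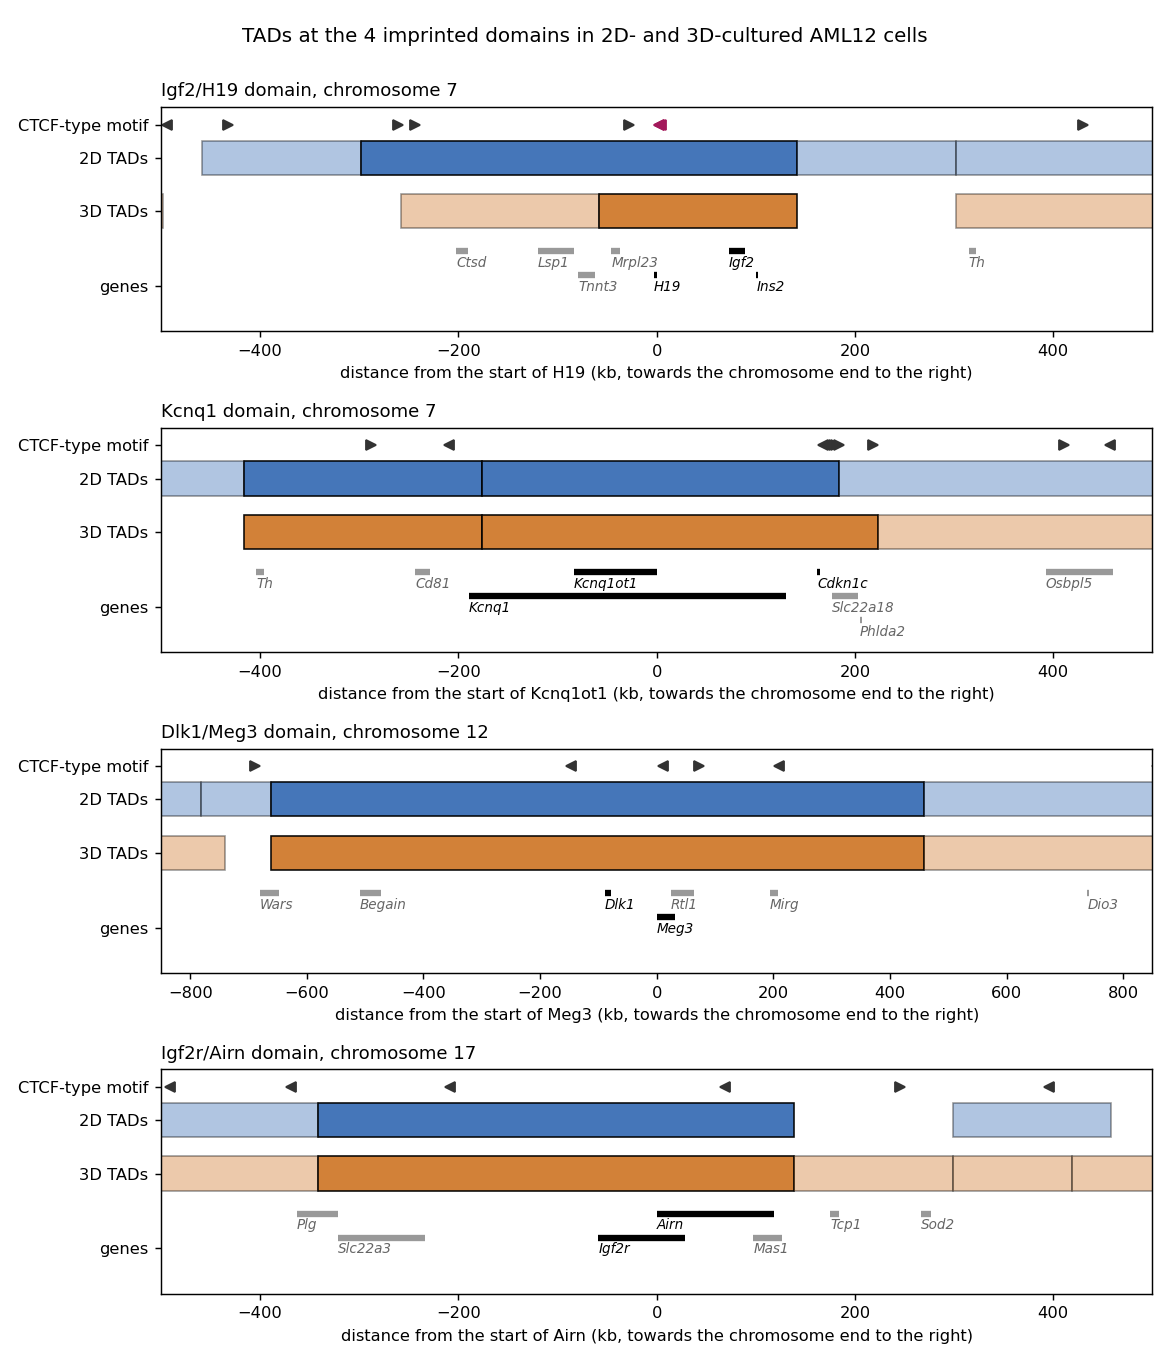
TADs of the 2D (blue) and 3D (orange) lists at the 4 clusters, by distance in kb from the start of a named gene. Dark bars are TADs that hold the start of those of the 10 genes that belong to the cluster of the panel. The TAD of the Kcnq1 start is therefore pale in the Igf2/H19 panel. Gaps are DNA in no TAD. Genes are to scale below (the 10 in black, neighbours in grey), and triangles point along the strand of CTCF-type matches (purple for the longer pattern). The Igf2/H19 window shows 1 TAD of 440 kb in 2D where 3D has 2 TADs of 200 kb, and the TADs over Dlk1/Meg3 and Igf2r/Airn have the same ends in both.

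Among the TADs that hold the 10 genes, that of Igf2, H19 and Ins2 differed most in length between the cultures. Igf2, a fetal growth factor, H19, a lncRNA, and Ins2, a preproinsulin gene, lie on the minus strand of chromosome 7, and positions here and below are on the mm10 (GRCm38) build. The gene bodies were chr7:142650768-142666816 for Igf2, chr7:142575530-142578146 for H19 and chr7:142678656-142679726 for Ins2. In 2D all 3 lay in the TAD chr7:142280001-142720000. In 3D they lay in chr7:142520001-142720000, so the TAD differed by -240 kb (3D minus 2D) while its right end, inside an intron of the lncRNA gene Gm39116, stayed in place.

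What separated the lists was 1 border of the 3D list, at position 142520000 between genes, which was 200 kb from the nearest 2D border. On its far side 3D had a second TAD, chr7:142320001-142520000, also of 200 kb. The outer ends of these 2 TADs lay within 1 bin of the ends of the 2D TAD, so the 2D TAD spanned 2 TADs of the 3D list. That arrangement was found for 64 of all 4467 TADs in 2D (1.43%). The opposite arrangement, a 3D TAD spanning at least 2 TADs of the 2D list, was found for 189 of 4355 (4.34%).

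The extra border brought the left end of the TAD nearer to all 3 genes, and for H19 it also became the nearest border. The start of H19 lay 298 kb from the left end of its TAD in 2D and 58.1 kb in 3D, and the nearest border was 142 kb away in 2D and 58.1 kb away in 3D. The start of Igf2 lay 387 kb from the left end in 2D and 147 kb in 3D, but its nearest border, the right end, was 53.2 kb away in both. Ins2 was 40.3 kb from that right end in both cultures. The placement of Ins2 rests on the annotation used, since the GENCODE M21 gene begins at 142743381, which falls in a 160-kb TAD in 2D and in no TAD in 3D.

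The 2D TAD of Igf2, H19 and Ins2 held 12 protein-coding and 7 lncRNA gene starts, and the 3D TAD held 3 and 4. Of 10 neighbouring genes listed for this cluster, 5 left it in 3D and lay in the second 200-kb TAD: Ctsd, encoding the lysosomal protease cathepsin D, Syt8, a synaptotagmin, Tnni2 and Tnnt3, the inhibitory and tropomyosin-binding subunits of fast skeletal muscle troponin, and Lsp1, a leukocyte actin-binding protein. Mrpl23, a mitochondrial ribosomal protein gene, and the lncRNA genes Nctc1 and Igf2os stayed with Igf2 and H19. Mrpl23 was the nearest of them to the new border, with its start at 142532467, and Tnnt3, with its start at 142498771, was the nearest on the other side. The remaining 2 listed genes, Th, tyrosine hydroxylase, and Ascl2, a transcription factor of the placenta and gut stem cells, lay outside in both cultures, in the same TAD as the start of Kcnq1.

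The DNA beside this TAD also differed. To the right, chr7:142720001-142880000, which holds no protein-coding start and 3 lncRNA starts, was a TAD of 160 kb in 2D and was assigned to no TAD in 3D. To the left, 240 kb from position 142080001 to 142320000 were unassigned in 3D, whereas 2D had a 160-kb TAD there, chr7:142120001-142280000, with 12 protein-coding starts, among them the keratin-associated genes Krtap5-2, Krtap5-3 and Krtap5-5. Within 1 Mb of the cluster, 80 kb were unassigned in 2D and 400 kb in 3D. Around Kcnq1, a window that overlaps this one, the totals were 40 and 400 kb. They were 80 kb in both cultures around Dlk1/Meg3, and went the other way around Igf2r/Airn, 320 kb in 2D and 160 kb in 3D. Over the whole lists there were 1569 unassigned stretches between TADs in 2D and 1188 in 3D.

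The H19 control region can be read in the reference sequence. A 14-base pattern of the CTCF sites known there (CCGCG, any base, GG, any base, GGCAG) was searched on both strands of chromosomes 1 to 19 and X and matched 58 times in all. H19 had 3 matches within 10 kb upstream of its start, the only gene of 34128 with more than 1, and 27 genes (0.0791%) had at least 1. The pattern was taken from the sites known at this locus, so these counts locate the matches and are no finding about H19. They are shown because they lie in the control region of Igf2, each on the minus strand, between genes, with the pattern in capitals and 15 bases on each side.
chr7:142580294-142580337: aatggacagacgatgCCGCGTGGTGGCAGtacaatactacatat
chr7:142580749-142580792: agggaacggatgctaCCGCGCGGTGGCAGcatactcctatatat
chr7:142582019-142582062: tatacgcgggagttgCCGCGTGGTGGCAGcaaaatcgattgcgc

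These matches lay 2.17, 2.62 and 3.89 kb upstream of the H19 start. In neither culture did a border fall within 1 bin of them: the nearest 3D border, 142520000, was 60.3 to 62.0 kb away, and the nearest 2D border, 142720000, was 138 to 139.7 kb away. Both lists thus kept H19, its upstream matches, Igf2 and Ins2 in 1 TAD. A match of letters is not a bound site, and binding was not measured.

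The borders at this cluster were also read for the shorter core of the common CTCF motif (CCAC, any base, AGG, any base, GGC), which matched 6680 times on both strands of the same chromosomes. By their fixed bases the 2 patterns cannot match in the same alignment. The border found only in 3D had 1 match within 40 kb, in an intron of Nctc1, 30.2 kb towards H19. The left end of the pair of 3D TADs, 142320000, had 2 matches, 1 between genes and 1 in an intron of Ifitm10, an interferon-induced transmembrane protein gene. The shared right end, 142720000, had none. The 3 matches are all on the plus strand and are printed to show the sequence at the ends of the 3D TADs, with the core in capitals.
Nctc1 intron, chr7:142550157-142550198: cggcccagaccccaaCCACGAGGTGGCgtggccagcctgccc
Between genes, chr7:142316697-142316738: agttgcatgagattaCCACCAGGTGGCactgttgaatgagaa
Ifitm10 intron, chr7:142334424-142334465: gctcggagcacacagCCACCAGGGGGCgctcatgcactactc

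Each of the genes H19 and Igf2 hosts a microRNA, and both hairpins stayed in the TAD of their host in both cultures. MicroRNAs pair with messenger RNAs through the seed, bases 2 to 8, given here in capitals in the RefSeq mature sequences. The 4 seeds differ from each other.
miR-675-5p (H19 exon): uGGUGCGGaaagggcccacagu
miR-675-3p (H19 exon): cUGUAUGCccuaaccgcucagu
miR-483-5p (Igf2 intron): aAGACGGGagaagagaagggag
miR-483-3p (Igf2 intron): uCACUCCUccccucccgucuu

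At the Kcnq1 cluster a border lay inside the body of a gene. Kcnq1, a voltage-gated potassium channel, spans chr7:143106877-143427050 on the plus strand and is 320 kb long. In both cultures position 143120000, in an intron 13.1 kb past its start, was a border where 2 TADs met. The start of Kcnq1 thus lay in chr7:142880001-143120000, a 240-kb TAD with the same ends in both lists. The rest of the gene lay in the next TAD.

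Kcnq1 was the only gene of the 10 with a border in its RefSeq body, in 2D and in 3D (1 of 10 in each), where 10.6% and 9.86% of all genes had one. With GENCODE extents Ins2 had one too, making 2 of 10 in each. Long genes meet borders more often: of 3569 genes of at least 80 kb, 32.6% had one in 2D and 29.4% in 3D. Of the other long genes of the 10, Airn (119 kb), Igf2r (87.3 kb) and Kcnq1ot1 (83.4 kb) had none.

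Kcnq1ot1, the antisense lncRNA that starts inside Kcnq1, and Cdkn1c, which encodes the cyclin-dependent kinase inhibitor p57, lay together on the far side of that border. Their gene bodies are chr7:143213111-143296547 and chr7:143458339-143461059, both on the minus strand. The TAD that held both starts was chr7:143120001-143480000 (360 kb) in 2D and chr7:143120001-143520000 (400 kb) in 3D. The difference of 40 kb is 1 bin, the step of the grid, and the 2 TADs count as counterparts.

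That bin changed the place of a neighbour. Phlda2, an imprinted gene that limits placental growth, starts at 143503145. It lay in the next TAD, chr7:143480001-143800000, in 2D and in the TAD of Cdkn1c and Kcnq1ot1 in 3D. Slc22a18, an imprinted organic cation transporter gene, lay with Cdkn1c in both, and the 2D border cut through 1 of its introns. Cdkn1c itself was 18.9 kb from its nearest border in 2D and 58.9 kb in 3D, whereas Kcnq1ot1 was 177 kb away in both. Of 14 neighbouring genes listed for the cluster, all lay in TADs in both cultures. Matching TADs held 11 of them, against 53.7% of all genes, and TADs with identical ends held 4, against 37.7%. The 4 were Tspan32, Cd81, Tssc4 and Trpm5, all in the TAD of the start of Kcnq1.

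Further from the members, a single 3D TAD of 680 kb, chr7:143800001-144480000, spanned 3 TADs of the 2D list, of 120, 160 and 400 kb. It holds Dhcr7 and Nadsyn1, genes of sterol and NAD synthesis, with Shank2 and Cttn. There the longer TAD was in 3D, the opposite of the Igf2/H19 TAD. The same held to the left of the Igf2/H19 TAD, where a 3D TAD of 600 kb, chr7:141480001-142080000, spanned 2 TADs of the 2D list.

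The moved end of the Cdkn1c TAD lay among several matches to the core motif. The 2D border 143480000 had 5 within 40 kb, the most of any border at the 4 clusters, 3 on the plus strand and 2 on the minus strand, and the 3D border 143520000 had 2, both plus and both among the 5, at 39.3 and 5.43 kb from it. The border inside Kcnq1, present in both lists, had 1, on the minus strand in an intron of the channel gene Trpm5, 32.5 kb to the left of the border and inside the TAD of the Kcnq1 start. The 2 matches nearest to 143480000 and the match at the border inside Kcnq1 are printed with the core in capitals. Those in Slc22a18 lay 3.12 and 0.705 kb from 143480000. The match nearest to 143520000, in an untranslated region of Nap1l4, is not printed.
Slc22a18 intron, plus, chr7:143476858-143476899: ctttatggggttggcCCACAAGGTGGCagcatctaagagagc
Slc22a18 intron, plus, chr7:143480685-143480726: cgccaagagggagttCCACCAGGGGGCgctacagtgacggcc
Trpm5 intron, minus, chr7:143087495-143087536: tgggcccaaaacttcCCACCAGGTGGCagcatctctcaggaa

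The Dlk1/Meg3 cluster lay in the longest TAD of the 4. Dlk1, a membrane protein of the Notch ligand family that is expressed from the paternal copy (chr12:109452485-109463336), and Meg3, a maternally expressed lncRNA (chr12:109540996-109571729), are both on the plus strand. Their TAD was chr12:108880001-110000000, 1120 kb long, in 2D and in 3D. The ends fell in introns of Wars, a tryptophan-tRNA synthetase gene, and of the lncRNA gene Gm34667. Dlk1 was 548 kb and Meg3 459 kb from the nearest border, the largest distances among the 10 genes.

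Of the genes placed in TADs, 25.6% in 2D and 24.1% in 3D lay in a longer TAD than Dlk1 and Meg3. The TAD held 5 protein-coding starts, Begain, Dlk1, Rtl1, Wars and Wdr25, and 8 lncRNA starts, among them Rian and Mirg, the maternally expressed RNAs downstream of Meg3. Dio3, the imprinted thyroid hormone deiodinase at the far end of the cluster, and its antisense partner Dio3os lay outside it in both cultures, in the next TAD, chr12:110000001-110400000 (400 kb). Of 12 listed neighbours, 9 lay in TADs with identical ends, against 37.7% of all genes, and most of the 9 lay in the TAD of Dlk1 and Meg3. The exceptions were Degs2, Yy1 and Slc25a29, all to the left of the TAD, of which Slc25a29, a mitochondrial carrier gene, was outside TADs in 3D.

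The cluster is also known for its microRNAs. The TAD of Dlk1 and Meg3 held 57 of the 1005 annotated hairpins, the most of any TAD in the 2D list, in which 564 of 4467 held any. They gave 111 different mature sequences with 102 seeds, of which 9 seeds were shared by 2 sequences each. All lay between 109563692 and 109747960, so no border of either list fell among them. The microRNA of Meg3 itself and 2 pairs with a shared seed are shown, to give an example of what the TAD holds, with the seed in capitals.
miR-770-5p (Meg3 exon): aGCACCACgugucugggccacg
miR-770-3p (Meg3 exon): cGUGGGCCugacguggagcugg
miR-379-3p: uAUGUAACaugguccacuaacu
miR-411-3p: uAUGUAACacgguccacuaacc
miR-376c-5p: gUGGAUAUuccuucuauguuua
miR-376b-5p: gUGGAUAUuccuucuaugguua

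Matches to the core CTCF motif lay near 1 end of this TAD and inside it. The left end had 1 match within 40 kb, on the plus strand in an intron of Slc25a47, 27.4 kb outside. The right end had none. Of 4 matches inside the TAD, 1 lay in an intron of Meg3, 448 kb from the nearest border. The match at the left end and the match within Meg3 are given with the core in capitals.
Slc25a47 intron, plus, chr12:108852620-108852661: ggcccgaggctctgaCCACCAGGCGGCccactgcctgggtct
Meg3 intron, minus, chr12:109551649-109551690: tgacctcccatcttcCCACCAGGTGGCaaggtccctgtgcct

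The Igf2r/Airn cluster lay in a TAD of 480 kb with identical ends in both cultures, chr17:12400001-12880000. Igf2r, the receptor that clears IGF2 and sorts lysosomal enzymes, spans chr17:12682406-12769706 on the minus strand. Airn, the paternally expressed RNA antisense to it, spans chr17:12741311-12859884 on the plus strand and starts inside Igf2r. The start of Igf2r was 110 kb and that of Airn 139 kb from the nearest border. The TAD also held Slc22a2 and Slc22a3, organic cation transporter genes that are imprinted in the placenta, and Mas1 and Mrgprh, receptor genes of the G protein-coupled class. The left end fell in an intron of Plg, the plasminogen gene, whose start lay in the neighbouring TAD in both lists, and the right end lay between genes.

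The cultures differed just beyond the right end. The next 160 kb, chr17:12880001-13040000, were unassigned in 2D and were a TAD in 3D. Those kilobases hold 7 protein-coding starts, Pnldc1, Mrpl18, Tcp1, Acat3, Acat2, Wtap and Sod2, with roles that include acetyl-CoA transfer, protein folding in the cytosol and the removal of mitochondrial superoxide. Because of them, 8 of 15 listed neighbours were in TADs in 2D and 15 of 15 in 3D. In TADs with identical ends were 6 of the 15, against 37.7% of all genes. Among the 6 were Slc22a2, Slc22a3 and Mas1 in the Igf2r TAD and Plg beside it. Further to the left, a 3D TAD of 3760 kb, chr17:8440001-12200000, spanned 3 TADs of the 2D list. The nearest of these to Igf2r was 1880 kb long.

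Within Airn, 1 match to the core motif lay in an intron, 69.3 kb from the right end of the TAD. The left end had 1 match within 40 kb, between genes and 27.8 kb outside, and the right end had none. Both are on the minus strand and are shown with the core in capitals.
Airn intron, chr17:12810648-12810689: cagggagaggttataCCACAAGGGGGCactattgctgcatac
Between genes, chr17:12372215-12372256: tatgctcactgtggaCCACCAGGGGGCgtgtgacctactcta

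Across the 4 clusters the TADs of the 10 genes had a median length of 440 kb in 2D and 400 kb in 3D, against 360 and 400 kb over all genes placed in TADs. The Igf2, H19 and Ins2 TAD changed place in this order: 44.6% of the genes placed in TADs lay in a longer one in 2D and 75.6% in 3D. For the TAD of the Kcnq1 start the shares were 62.5% and 68.1%, for that of Kcnq1ot1 and Cdkn1c 49.8% and 47.6%, and for that of Igf2r and Airn 42.4% and 42.5%.

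**Figure D2:**
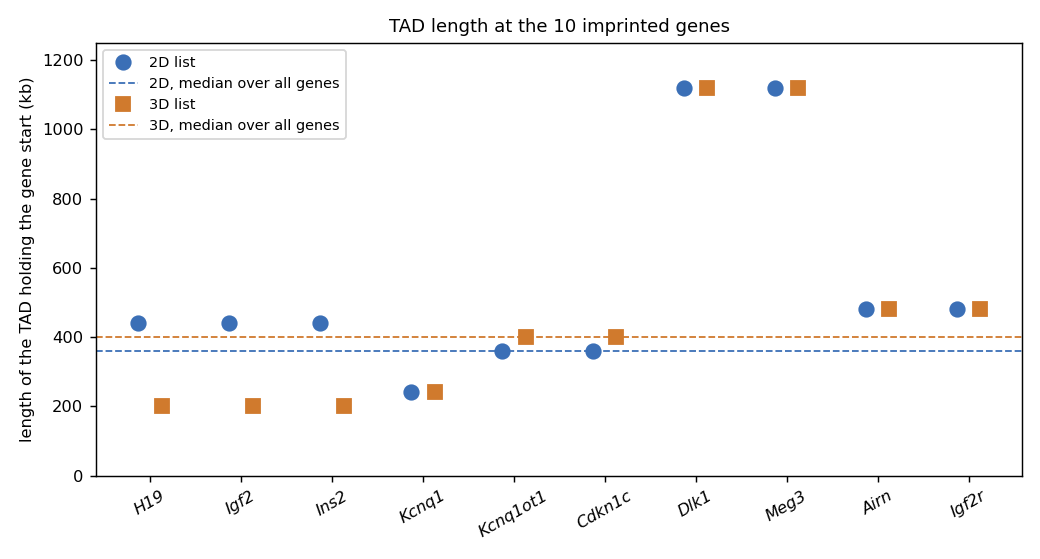
Length in kb of the TAD that holds the start of each imprinted gene in 2D (circles) and 3D (squares), with dashed lines at the medians over all genes in TADs, 360 and 400 kb. Igf2, H19 and Ins2 are at 440 kb in 2D and 200 kb in 3D, Kcnq1ot1 and Cdkn1c differ by 40 kb, and the other 5 genes have equal lengths.

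Kcnq1 and Cdkn1c, 2 of the 10 genes, started within 40 kb of a border in 2D, against 35.7% of all genes. Kcnq1 alone did so in 3D, against 33.4%. The count depends on the distance allowed: within 80 kb of a border were 4 of the 10 in 2D and 5 in 3D, against 56.9% and 53.7% of all genes. In both lists Ins2, which missed 40 kb by less than 1 kb, and Igf2, at 53.2 kb, then counted. In 3D H19, at 58.1 kb, and Cdkn1c, at 58.9 kb, did so too. With GENCODE gene extents the counts within 40 kb were 3 and 2. For the 10 genes the nearest border was a median of 124 kb (2D) and 84.6 kb (3D) away, and for all genes 64.5 and 71.3 kb.

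Whether genes of a cluster share a TAD depends on their distance, so each pair was set beside all pairs of protein-coding genes whose starts are as far apart, in classes of 40 kb. Of the 8 pairs of genes within a cluster, 6 lay in 1 TAD, the same 6 in 2D and in 3D. H19 and Igf2, 88.7 kb apart, shared a TAD in both, as 42.2% of pairs of that distance did in 2D and 49.8% in 3D. Dlk1 and Meg3 were 88.5 kb apart and fall in the same class. Igf2 and Ins2 were 12.9 kb apart and Igf2r and Airn 28.4 kb apart, a class in which 62.1% of pairs in 2D and 71.4% in 3D shared a TAD.

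The other 2 pairs were those of Kcnq1. Its start was in another TAD than the starts of Kcnq1ot1, 190 kb away, and of Cdkn1c, 354 kb away. At these distances 27.1% and 17.0% of all pairs shared a TAD in 2D, and 32.8% and 18.6% in 3D. Kcnq1ot1 and Cdkn1c, 165 kb apart, shared one. The separation of Kcnq1 rests on its start being 13.1 kb from a border: with genes placed by their midpoint all 8 pairs lay in 1 TAD in both lists, and with borders moved 1 bin towards the chromosome start 6 did in 2D and 8 in 3D. The 6 in 2D were then not the same pairs, since Kcnq1 joined Kcnq1ot1 and Cdkn1c left it. With GENCODE gene extents, 4 of the 8 did in both lists. Between the 2 clusters of chromosome 7, Ins2 and Kcnq1, 427 kb apart, were in different TADs in both lists, where 14.7% of such pairs in 2D and 15.9% in 3D shared one. Igf2 and Kcnq1ot1, 630 kb apart, were likewise in different TADs, and 11.1% of pairs at that distance shared one in either list.

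**Figure D3:**
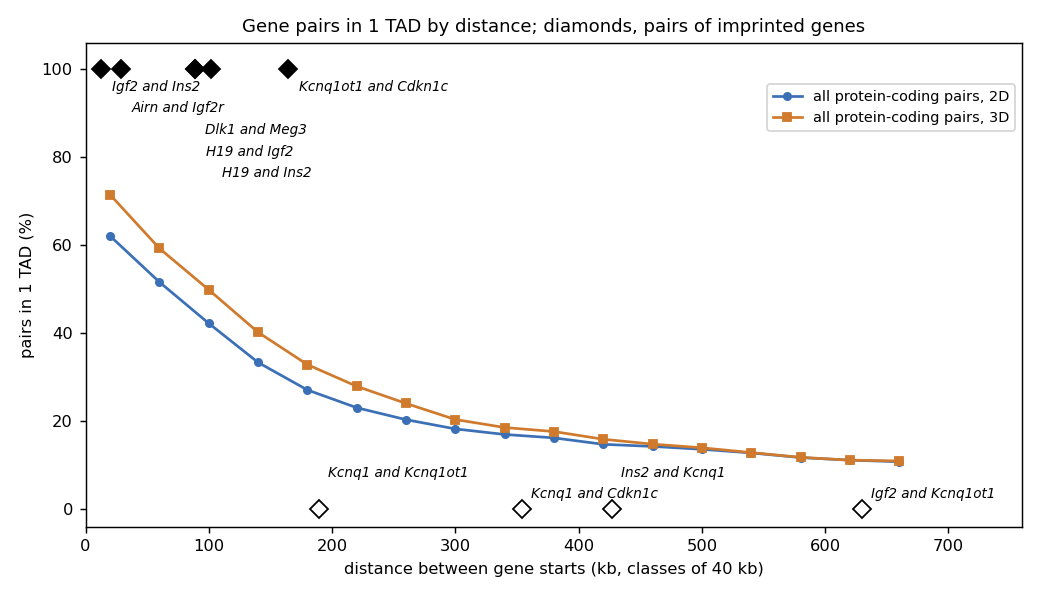
Share in % of all pairs of protein-coding gene starts that lie in 1 TAD, by the distance between the starts in kb, for 2D (circles) and 3D (squares). Diamonds mark pairs of the imprinted genes, at 100 where the pair shared a TAD and at 0 (open) where it did not, with the same outcome in both lists.

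The borders around the clusters were counted in windows that reach 1 Mb beyond the outermost genes. The 2 windows of chromosome 7 overlap, and borders in both were counted once. There were 27 borders in 2D, of which 22 (81.5%, exact 95% interval 61.9 to 93.7%) were shared with 3D, against 81.9% of all 2D borders. There were 21 in 3D, of which 20 (95.2%, 76.2 to 99.9%) were shared, against 88.1% of all 3D borders. The intervals cover counting error only and hold the value of the whole list in both cases. The 2D share depends on what counts as a border. With only positions where 2 TADs meet, required of both lists, it was 47.1% against 74.8% of all such borders in 2D. In 3D it was 61.5% against 68.4%. A border where 2 TADs met in 1 list but that flanked unassigned DNA in the other then counted as not shared. Examples are 142720000 and 142880000, at the same position in both lists, where 2 TADs met only in 2D. The only 3D border of the 21 without a 2D border in reach was the one at 142520000 between Tnnt3 and Mrpl23.

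By window, 7 of 8 borders of the 2D list around Igf2/H19 were shared, 7 of 9 around Kcnq1, 5 of 6 around Dlk1/Meg3 and 9 of 10 around Igf2r/Airn. For the 3D list they were 6 of 7, 6 of 7, 5 of 5 and 8 of 8. The number of TADs that reach into a window was 8 in 2D and 6 in 3D around Igf2/H19, 9 and 6 around Kcnq1, 6 and 5 around Dlk1/Meg3, and 8 in both around Igf2r/Airn. Thus the window of Igf2/H19 had fewer TADs in 3D even though the TAD of Igf2 itself was split there.

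A CTCF-type match, of either pattern, lay within 40 kb of 12 of the 27 borders in 2D (44.4%, exact 95% interval 25.5 to 64.7%) and of 11 of the 21 in 3D (52.4%, 29.8 to 74.3%). Over all borders the shares were 33.8% in 2D and 34.1% in 3D, and both lie inside those intervals. Of all positions of the 40-kb grid, 17.4% had a match as near. Within 20 kb the shares were 22.2% of the cluster borders in 2D and 28.6% in 3D, 20.5% and 20.6% of all borders, and 9.41% of grid positions.

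Outside the 4 clusters, 45 other imprinted genes were placed the same way, from a list made with general knowledge of imprinting. Of these, 38 (84.4%) were in TADs in 2D and 40 (88.9%) in 3D, near the shares of all genes given above. In TADs with identical ends were 22 (48.9%), and 25 (55.6%) lay in TADs with both ends within 1 bin, against 53.7% of all genes. The 22 included Plagl1, a zinc finger gene, in a TAD of 1440 kb, Peg3, Zim1 and Usp29 in one of 1080 kb, and Peg10, Sgce and their neighbours in one of 1920 kb. The median TAD length of the listed genes was 1080 kb in both cultures, and many of them share a TAD.

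Of the 45, 12 (26.7%) were in TADs of both lists that did not match, against 23.8% of all genes. The first 10 in order of name were Cobl, Commd1, Gnas, Inpp5f, Kcnk9, Magel2, Mkrn3, Nap1l5, Ndn and Snrpn. Gnas, which encodes the stimulatory G protein alpha subunit, was in a TAD of 1880 kb in 2D and 1960 kb in 3D. Kcnk9, a potassium channel gene, was in one of 640 kb in 2D and 4200 kb in 3D. Snrpn, Ndn, Magel2 and Mkrn3 of the Prader-Willi region shared a TAD of 2520 kb in 2D and one of 2240 kb in 3D, so they moved together. Mest, Copg2, Klf14 and H13, 4 of the 45, were outside TADs in both, against 10.2% of all genes.

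**Figure D4:**
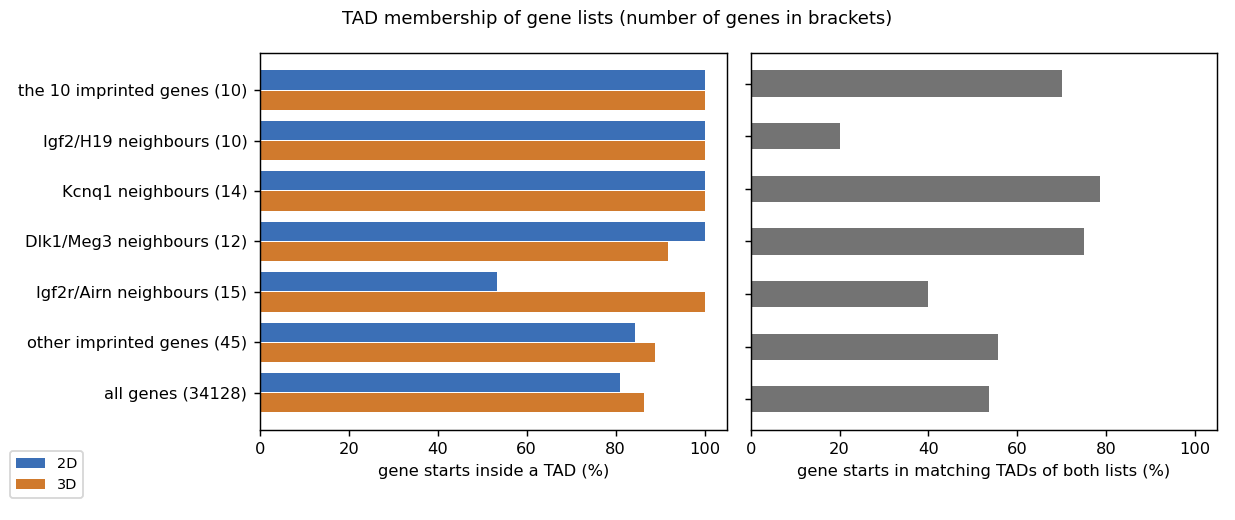
Share in % of gene starts that lie in a TAD in 2D (blue) and 3D (orange), left, and that lie in matching TADs of both lists, right, for the 10 imprinted genes, the listed neighbours of each cluster, other imprinted genes and all genes. The neighbours of Igf2/H19 have the lowest share in matching TADs, 2 of 10, and those of Igf2r/Airn the lowest share in TADs in 2D, 8 of 15.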

How the data were processed

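In situ Hi-C libraries of AML12 cells (2 per culture) were mapped by the authors iteratively with Bowtie 2 (version 2.2.9) to mm10, keeping pairs with both mapping qualities above 30. They pooled replicates and normalised 40-kb matrices by iterative correction. Before calling TADs with Armatus (version 1.0, gamma 0.8), they equalised contact numbers between cultures chromosome by chromosome. The deposited files list a chromosome, start and end per TAD, read here as positions. The sequencing depth, and so the precision of a border, cannot be read from them.

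Python (3.11.15), pandas (2.3.3) and scipy (1.17.1) were used to place RefSeq (GRCm38) gene starts into TADs, compare borders, search motifs in the reference sequence and compute exact Clopper-Pearson intervals. All counts are descriptions without a test. On simulated TADs, gene placement, edge bases, counterparts and the borders of a list compared with itself returned the known answer in 4 of 4 cases. Ends moved by 1 bin, border sharing between lists, gene pairs, borders in gene bodies and motif matches were not simulated. The text names all 10 genes, any listed neighbour that entered or left their TADs, and the first 10 by name of other imprinted genes placed in TADs of both lists that did not match; further genes are given as examples of TAD contents. Of the listed neighbours and other imprinted genes, 15 of 16 at Igf2r/Airn and 45 of 46 elsewhere matched the annotation, and all at the other clusters. Genes and lists were chosen with earlier results of these data known. Alternatives covered gene placement, border position, distance, TAD length, window and motif reach, and GENCODE gene extents, the last added after seeing the data.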

Additional observations from a re-analysis of the deposited data

How the results depend on the processing

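Under the other settings, 42 values were recomputed for the counts and shares. Of these, 34 stayed within 1.5 times the main count or inside the 95% interval of the main share, and 8 moved. The setting that dropped TADs shorter than 200 kb could move no count and no TAD length. Every TAD of the 10 genes was at least that long. With GENCODE extents, tried after seeing the data, 7 of 10 stayed. The pairs in 1 TAD, among those that stayed, ranged from 4 (GENCODE extents) to 8 of 8, and the genes with a counterpart from 5 to 7. The shared part of the borders was 51.9% in 2D and 66.7% in 3D when the same position was required (64.1% and 69.8% of all borders). It was 47.1% and 61.5% when only borders where 2 TADs meet were used in both lists (74.8% and 68.4% of all such borders). With 80 kb allowed, 4 genes in 2D and 5 in 3D started near a border (56.9% and 53.7% of all genes). With motif matches within 20 kb, the shares were 22.2% in 2D and 28.6% in 3D, beside 20.5% and 20.6% of all borders. With GENCODE extents, 2 genes in 3D started near a border, and 2 in each culture had a border in the body, since the Ins2 gene there crosses 142720000. Of 120 TAD lengths of single genes and their differences between the lists, 112 were equal to the main value: Kcnq1, placed by its midpoint or with borders moved 1 bin towards the chromosome start, fell in the TAD of Kcnq1ot1 (360 kb in 2D, 400 kb in 3D), and Cdkn1c with borders so moved was in a TAD of 320 kb in 2D, so that its TAD then differed by 80 kb. Borders cannot be placed more finely than 40 kb. No paired analysis was possible because the replicates were pooled before TADs were called; for the same reason none could be left out.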
